A study of Arabidopsis thaliana with 6 samples.

Results

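The root tip transcriptome of wild type Arabidopsis thaliana was described from the 3 Col-0 libraries of a series of 6, chosen by their sample titles. The other 3 libraries came from the hsl2 mutant, which is altered in a leucine-rich repeat receptor-like kinase of the HAESA family and whose allele the labels do not name. Each sample was total RNA from the terminal 0.5 mm of primary roots, cut from seedlings 7 days old. Plants of both groups grew upright on plates of MS medium with 1% agar and no sucrose, in long days (16 h light, 8 h dark). The labels mention no transgene and no treatment. Whether the libraries of a group came from separately grown plants is not stated, so the spread among them may be partly technical. With 1 genotype described there was no contrast and no test, and errors are standard deviations over the 3 libraries.

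This piece of a root holds very different cells side by side. At its end sits the root cap, made of the central columella, which senses gravity with starch-filled plastids, and the lateral root cap, whose oldest cells die or are shed. Behind the cap lies the stem cell niche around the quiescent centre, kept by PLETHORA transcription factors and auxin. The stem cells feed a zone of small dividing cells that are packed with ribosomes and already laid out as epidermis, cortex, endodermis or vascular tissue. Mature features such as root hairs, the Casparian strip of the endodermis and thick-walled xylem form farther from the tip.

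The Col-0 libraries held 20468890, 15791819 and 15994514 gene counts in replicates 1, 2 and 3. A count of 3, taken as the floor of a single library, equalled 0.147 to 0.190 CPM (counts scaled by library size), and intervals of this kind cover counting error only. Of 37336 genes in the files, 16723 reached 1 CPM in all 3 libraries and 14124 had no count in any. A mean of 17223 ± 126 genes per library reached 1 CPM, 11884 to 12126 reached 10 CPM and 87 to 97 reached 1000 CPM. Protein-coding nuclear genes took 99.4% of the counts, with mitochondrial genes at 0.0176% to 0.0289% and plastid genes at 0.000987% to 0.00131%. Of 27444 protein-coding genes 16243, or 59.2%, were at 1 CPM or more in all libraries, against 187 of 3480 long non-coding RNA genes, or 5.37%. How RNA species were selected before sequencing is not given in the sources used here, so the low share of non-coding RNA is a property of these libraries.

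Counts were spread over many genes. The 10 most abundant genes took 3.55% ± 0.202 of all counts, the 100 most abundant 15.4% ± 0.742 and the 1000 most abundant 47.5% ± 1.01 (SD, n = 3). Between 1075 and 1189 genes were needed to hold 50% of the counts of a library. Replicate 1, the deepest library, was the most concentrated on each of these measures.

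Transcripts of the protein synthesis machinery led the root tip. To compare genes, counts were divided by the length of the longest annotated transcript and scaled to the same total in every library (TPM). On this scale 11 of the 20 highest genes, and 66 of the 100 highest, were ribosomal proteins by the words of their description. Ribosomal proteins described otherwise are not in these counts. The first was nevertheless GRP7 (AT2G21660), a glycine-rich RNA-binding protein under circadian control, at 5256, 3581 and 5666 TPM in replicates 1, 2 and 3. Replicate 2 was the low one, and the mean was 4835 ± 1105 TPM (SD, n = 3). The translation elongation factor gene EF1A-A4 (AT5G60390), whose product carries aminoacyl-tRNA to the ribosome, followed at 3943, 3357 and 2871 TPM. Its near-identical copies AT1G07920, AT1G07930 and AT1G07940 were at 536 TPM, 711 TPM and 284 TPM, and the division of reads among these 4 genes is uncertain.

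The next places per length belonged to ribosomal proteins. AT5G20290, a small-subunit protein of the S8 family, was at 3339.6 ± 179.7 TPM and emb2386 (AT1G02780), a large-subunit protein of the L19 family, at 3313 ± 266 TPM (SD, n = 3). AT4G27090, AT5G15200 and AT3G60245 had mean levels of 3146 TPM, 3041 TPM and 2856 TPM. Further down the 20 were AT5G02960, AT1G67430, AT2G34480, AT3G09200, emb2171 and RP1, between 2328 TPM and 2751 TPM. All 11 had their highest level in replicate 1.

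The other members of the 20, not counted as ribosomal by description, included genes of energy and one-carbon metabolism, folding and protein turnover. HOG1 (AT4G13940), which removes S-adenosylhomocysteine left by methyl transfer, was at 3012 ± 107 TPM. AAC1, the mitochondrial carrier that exchanges ADP for ATP, was at 2944 ± 69.2 TPM, and GAPC1, the cytosolic glyceraldehyde-3-phosphate dehydrogenase, at 2735 ± 281 TPM (SD, n = 3 each). The growth-related protein gene TCTP, the ubiquitin extension gene UBQ6, the nucleoside diphosphate kinase gene NDPK1 and the constitutive chaperone gene HSC70-1 lay between 2339 TPM and 2476 TPM. The order within this group is loose: all 19 pairs of neighbours in the ranking had overlapping libraries. Of the 100 highest genes 88 were among the 100 highest in every library.

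**Figure D1:**
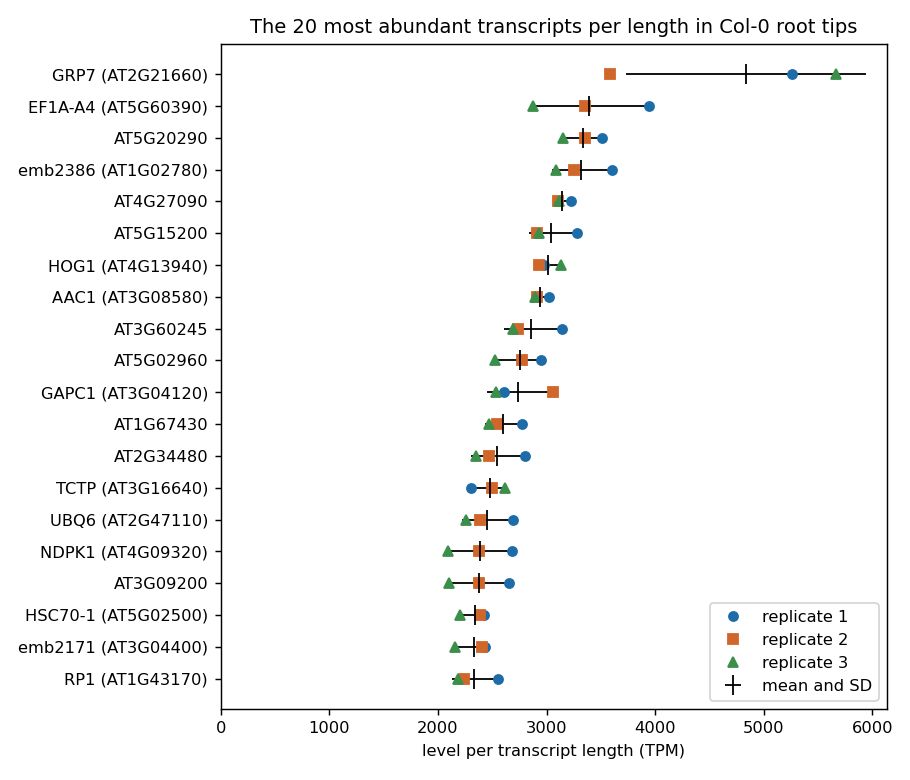
Level per transcript length (TPM, horizontal axis from 0) of the 20 genes with the highest mean in the 3 Col-0 libraries, with 1 symbol per library and a black mark with a bar for mean and SD. GRP7 leads at a mean of 4835 TPM with replicate 2 apart at the low end, and neighbouring genes overlap.

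Ranking by CPM, which is the share of reads a gene takes and favours long transcripts, kept 12 of these 20 genes. EF1A-A4 took the largest share, 4919 ± 809.7 CPM, followed by ATMS1 (AT5G17920), the cobalamin-independent methionine synthase, at 4481 ± 283 CPM and HOG1 at 4231 ± 151 CPM (SD, n = 3 each). The glycolytic enolase gene LOS2, the elongation factor 2 gene LOS1, the aldolase gene FBA8 and the endoplasmic reticulum chaperone gene SHD, an HSP90 of that compartment, entered the list at 2845 CPM, 2789 CPM, 2241 CPM and 1835 CPM. The median length was 1699 bases for the 20 highest by CPM and 1093 bases for the 20 highest per length.

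The upstream sequences of ribosomal protein genes are shown because these genes dominate the tip together. Each window holds the 250 bases before the annotated start of the gene in RefSeq's TAIR10.1 annotation, written 5′ to 3′ on the strand of the gene. The count files carry no coordinates, and genes were matched by locus name. Capitals mark a telo box (AAACCCTA) or a site II element (TGGGCC) on either strand. Both elements are known from promoters of ribosomal protein genes and of genes active in dividing plant cells.
AT5G15200, chr5:4936430-4936679, minus strand: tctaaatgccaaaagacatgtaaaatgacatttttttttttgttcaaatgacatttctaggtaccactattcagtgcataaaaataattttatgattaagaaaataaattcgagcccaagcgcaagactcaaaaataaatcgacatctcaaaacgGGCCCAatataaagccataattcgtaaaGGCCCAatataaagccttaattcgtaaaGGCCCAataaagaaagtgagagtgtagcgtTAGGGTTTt
AT5G02960, chr5:694516-694765, minus strand: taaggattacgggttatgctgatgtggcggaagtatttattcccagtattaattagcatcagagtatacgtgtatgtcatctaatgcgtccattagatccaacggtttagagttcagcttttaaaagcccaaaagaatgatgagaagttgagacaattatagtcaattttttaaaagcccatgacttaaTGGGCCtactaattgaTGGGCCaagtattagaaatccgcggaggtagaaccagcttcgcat
AT1G67430, chr1:25261884-25262133, plus strand: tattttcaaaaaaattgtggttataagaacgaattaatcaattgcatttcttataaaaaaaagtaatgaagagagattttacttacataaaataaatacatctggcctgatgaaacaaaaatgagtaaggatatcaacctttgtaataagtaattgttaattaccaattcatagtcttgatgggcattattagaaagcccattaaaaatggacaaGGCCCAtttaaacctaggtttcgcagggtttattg

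AT5G15200 held 3 site II elements and 1 telo box in this window, AT5G02960 held 2 site II elements and AT1G67430 held 1. The window of emb2386 held none of either. Across the 318 ribosomal protein genes at 1 CPM or more, 45.0% had TGGGCC within 250 bases and 15.4% had AAACCCTA, counting both strands. The shares over all 27443 protein-coding promoters of this length were 13.7% and 4.49%, and over the 16715 with a mean of 1 CPM or more they were 18.24% and 3.79%. The 100 genes with the highest level per length, 66 of them ribosomal by description, had 62% and 19%. The variant TGGGCT was in 38.1% of ribosomal protein promoters against 12.3% of all, and the TATAAA box in 49.4% against 47.3%. TGGGCC shares its first letters with TGGGCT, and the count of each is separate. These are matches of letters in a fixed window and say nothing of binding.

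By class, ribosomal proteins took 13.9, 12.8 and 12.1% of the counts in replicates 1, 2 and 3, a mean of 12.9% ± 0.896 (SD, n = 3). Of 346 genes whose description names a ribosomal protein, organellar types included, 318 were at 1 CPM or more in every library and 19 had no count. Per length the class made up 20.3% of the transcript pool, since its members are short. Replicate 1 had the largest share and replicate 3 the smallest.

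Translation factors followed at 2.501% ± 0.191 of counts, with the initiation factor 5A gene FBR12 at 1492, 1502 and 1308 CPM as the third member after EF1A-A4 and LOS1. Heat shock proteins and chaperones took 2.42% ± 0.112, led by HSC70-1, SHD and BIP2, the luminal HSP70 of the endoplasmic reticulum at 1480.0, 1614 and 1788 CPM. Proteasome subunits, which degrade ubiquitin-tagged proteins, were steadiest in share at 0.543% ± 0.0106, with 43 of 45 genes at 1 CPM or more (SD, n = 3 for each share).

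Tubulin and histone genes were broadly expressed, actins and profilins less so. All 13 tubulin genes were at 1 CPM or more and took 0.636% ± 0.0509 of counts, led by TUA4 at 1331, 1121 and 1139 CPM and TUA2 at 1139, 955 and 1064 CPM, alpha-tubulins so alike that reads may be divided between them. Histones took 0.446% ± 0.0244, with 41 of 49 genes at 1 CPM or more and the H2B gene HTB4 first at 409.9, 359.8 and 400.0 CPM. Actins and profilins took 0.319% ± 0.0400, with 10 of 15 genes at 1 CPM or more (SD, n = 3 for each share). The vegetative actin gene ACT7, which is known for its role in growing tissue, was at 861, 801 and 821 CPM and was nearly level. The closely related ACT2 and ACT8 were at 941, 938 and 1231 CPM and 539.9, 525 and 829 CPM, both highest in replicate 3.

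Wall and membrane classes had smaller parts of their genes at 1 CPM or more than tubulins and histones. Arabinogalactan proteins, glycoproteins of the wall and cell surface, took 0.429% ± 0.0272 of counts, and AGP31 alone was at 1974, 1596 and 1606 CPM. Of 67 class III peroxidases, enzymes that act on wall polymers and reactive oxygen, 27 were at 1 CPM or more, led by PRXR1 at 1153, 989.8 and 1176 CPM. Of 34 expansins, which loosen walls, 16 reached that level, led by EXPA9 at 207, 250.3 and 229.7 CPM. Of 29 xyloglucan enzymes 14 did, led by XTH4 at 201, 156 and 271 CPM. Aquaporins took 0.235% ± 0.0449 and were highest in replicate 3, with the plasma membrane channel PIP3 at 508, 488 and 606 CPM (SD, n = 3 for each share).

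Lipid transfer proteins and cytochrome P450 enzymes, large families with many specialised members, were mostly below 1 CPM. Of 134 lipid transfer and related proteins 24 were at 1 CPM or more and 76 had no count. The cytochrome P450 family had 84 of 248 genes at that level and 98 with no count, and its first member was the sterol demethylase gene CYP51G1 at 319, 296 and 305 CPM. Glutathione S-transferases, which conjugate toxic compounds, were more widely expressed, with 35 of 56 at 1 CPM or more and 6 with no count. They took 0.380% ± 0.0304 of counts (SD, n = 3), led by GSTF8 at 746, 1049 and 802 CPM. Of 181 receptor-like kinases with leucine-rich repeats, 119 were at 1 CPM or more. Their highest members by CPM were RGFR3, a receptor of root growth factor peptides, the brassinosteroid receptor gene BRI1 at 203, 209 and 196 CPM and the CLE peptide receptor gene BAM1 at 167, 153 and 162 CPM.

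**Figure D2:**
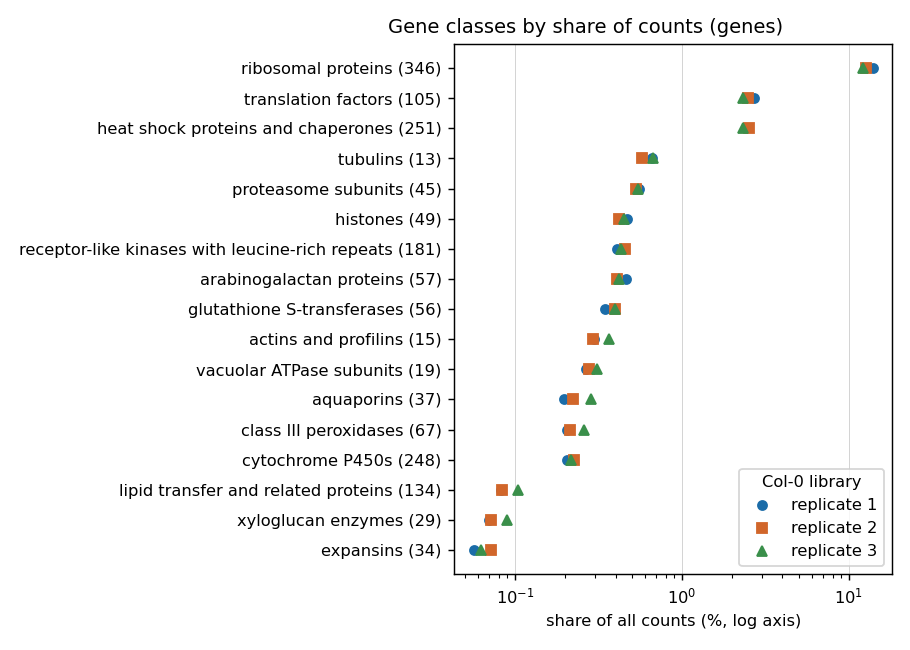
Share of all counts (percent, log axis) taken by 17 gene classes in each Col-0 library, with 1 symbol per library and the number of genes of the class in brackets. Ribosomal proteins stand first at a mean of 12.9% and expansins last at 0.0637%.

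Transcription factor genes were many and took a small share of the counts. By description 1095 genes belonged to 11 families, and together they took 1.32% ± 0.0672 of counts (SD, n = 3). Of these genes 486, or 44.4%, were at 1 CPM or more in every library and 306 had no count. The share at that level was 59.2% over all protein-coding genes and 44.8% over all genes in the files. GRAS genes were the most widely expressed family, with 28 of 33 at 1 CPM or more, and MADS genes the least, with 17 of 120. Per length the highest was bZIP2 (AT2G18160), a basic leucine zipper gene, at 388, 491 and 459 TPM. The auxin repressor gene IAA9 was at 222 ± 18.4 TPM, the homeodomain-leucine zipper gene HAT1 at 152 ± 11.8 TPM and the stress-related NAC102 at 161 ± 19.1 TPM (SD, n = 3 each). BZIP9 was the least steady of the 20 highest, at 101, 65.6 and 151 TPM, lowest in replicate 2.

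Markers of the cell types of a root tip were present. Each list median, taken over all members, was read against the median of 18.02 TPM over the 17259 genes with a mean of 1 CPM or more. That set leaves out genes below 1 CPM, which the lists keep, so it is a stricter yardstick. Over all genes in the files the median was 0.568 TPM. Counts of list members at 1 CPM or more in every library stand beside 59.2% over all protein-coding genes. In RNA from a whole tip, fewer cells of a type and less RNA per cell cannot be told apart. All 9 root cap identity genes were at 1 CPM or more in every library, with a median of 22.3 TPM and a range of 5.41 to 70.4 TPM. The NAC factor gene SMB (AT1G79580), which directs maturation of the lateral cap, was at 42.02, 45.8 and 39.01 CPM. Its relatives BRN1 and BRN2, which act with it in the late cap, were at 15.7, 24.0 and 10.9 CPM and 16.5, 18.6 and 12.004 CPM. SMB was nearly level among libraries, whereas BRN1 was highest in replicate 2 and lowest in replicate 3.

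FEZ, the NAC factor of cap stem cells, was lower at 7.77, 7.54 and 5.56 CPM. ARF10 and ARF16, auxin response factors that restrict columella stem cells, were at 33.9, 38.4 and 28.3 CPM and 47.98, 56.9 and 45.6 CPM. The wall enzymes of the outer cap were the most variable members: the cellulase gene CEL5 was at 96.6, 131 and 57.3 CPM and the polygalacturonase gene RCPG at 39.3, 49.3 and 21.1 CPM. Both had their highest value in replicate 2 and their lowest in replicate 3.

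Genes of cap cell death were present at modest levels. Of 7 members 6 were at 1 CPM or more in every library, with a median of 13.4 TPM. The ribonuclease gene RNS3 was at 16.95, 30.1 and 16.3 CPM, MC9, a metacaspase gene, at 10.6, 18.9 and 9.82 CPM, and PASPA3, which encodes a vacuolar-type aspartic protease, at 15.2, 17.7 and 14.1 CPM. The nuclease gene BFN1, which degrades nucleic acids in dying cap cells, was at 1.27, 3.48 and 1.63 CPM, and DMP4, a membrane protein gene of dying cells, at 0.831, 1.39 and 0.750 CPM. In each of these 5 genes replicate 2 had the highest value.

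Columella gravity sensing genes were all at 1 CPM or more, with levels of 2.56 to 57.3 TPM and a median of 13.4 TPM. ARG1, a DnaJ-type protein of gravity signalling, was at 58.8, 70.2 and 73.8 CPM, the auxin carrier PIN3 at 42.5, 49.96 and 48.9 CPM and LZY3, which links starch grain position to auxin flow, at 12.8, 16.02 and 16.8 CPM. Among 11 starch genes 10 were at 1 CPM or more in every library. The ADP-glucose pyrophosphorylase small subunit ADG1 was at 58.2, 61.3 and 50.8 CPM and the starch-phosphorylating enzyme SEX1 at 79.97, 78.1 and 85.7 CPM. The large subunit APL1 was near the lower limit at 0.879, 2.15 and 1.75 CPM. The granule-bound synthase GBSS1, which makes amylose, was low but even at 4.01, 3.80 and 4.001 CPM.

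The stem cell niche was read through abundant and rare regulators. The PLETHORA genes, whose graded products set the size of the meristem, were all expressed, with PLT3 at 95.9, 85.2 and 71.9 CPM, PLT1 at 66.4, 52.2 and 53.2 CPM, PLT2 at 20.08, 25.5 and 16.1 CPM and BBM, a further member of the family, at 16.95, 17.35 and 14.7 CPM. PLT1 and PLT3 were highest in replicate 1 and PLT2 in replicate 2. WOX5 (AT3G11260), the homeobox gene restricted to the few cells of the quiescent centre, was at 0.684, 0.507 and 0.2501 CPM, below 1 CPM in every library. CLE40, a peptide gene of the columella, had 1 count in replicate 1 and none elsewhere.

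Of the 12 niche and meristem regulators 7, or 58.3%, were at 1 CPM or more in every library, near the 59.2% over all protein-coding genes. AGL42, a MADS gene of the quiescent centre, was the least steady of them at 24.5, 10.9 and 31.3 CPM, with replicate 2 low. ACR4, the receptor kinase that limits columella stem cell division, was at 8.65, 12.5 and 8.94 CPM. WIP2, WIP4 and WIP5, zinc finger genes of the embryonic root, were between 0.688 and 1.42 CPM. Of the root growth factor genes, which extend the PLETHORA domain, the peptide genes RGF1, RGF2 and RGF3 were at 2.53 TPM, 21.5 TPM and 57.8 TPM and the receptor genes RGFR1, RGFR2 and RGFR3 at 34.2 TPM, 63.04 TPM and 95.04 TPM in mean level per length.

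Division genes were uniformly active. All 12 replication genes and all 18 mitosis genes were at 1 CPM or more in every library, with medians of 34.8 TPM and 34.4 TPM. The sliding clamp gene PCNA2 was at 92.8, 79.03 and 81.2 CPM and TSO2, the small subunit of ribonucleotide reductase, at 128, 115 and 97.6 CPM. The 6 minichromosome maintenance genes MCM2 to MCM7, whose products form the replicative helicase, had mean levels of 19.7 TPM to 35.7 TPM. KN (AT1G08560), the syntaxin that fuses vesicles at the cell plate, was the highest mitosis gene per length at 103 ± 15.9 TPM (SD, n = 3), with 109, 82.004 and 84.8 CPM by library. The anaphase activator gene CDC20.1 was at 132, 106 and 97.2 CPM and the mitotic kinase gene CDKB2;1 at 69.4, 59.02 and 54.7 CPM. Replicate 1 was the highest library in 17 of the 18 mitosis genes and in 7 of the 12 replication genes. It was the highest in 3574 of all 17259 genes with a mean of 1 CPM or more.

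A further sequence feature was common, but not general, among the mitotic genes. AACGG, the core of the mitosis-specific activator element bound by MYB3R factors, occurred within 250 bases upstream of 11 of the 18, or 61.1%. The share was 20.6% over all protein-coding promoters and 22.5% over the 16715 with a mean of 1 CPM or more. KN is shown, with the core in capitals, while CDC20.2 had none in its window. The windows of the mitotic genes also held TGGGCC in 1 of 18 and AAACCCTA in 0 of 18. In AT5G15200 above, 1 AACGG overlaps a site II element and is not in capitals as such.
KN, chr1:2711001-2711250, minus strand: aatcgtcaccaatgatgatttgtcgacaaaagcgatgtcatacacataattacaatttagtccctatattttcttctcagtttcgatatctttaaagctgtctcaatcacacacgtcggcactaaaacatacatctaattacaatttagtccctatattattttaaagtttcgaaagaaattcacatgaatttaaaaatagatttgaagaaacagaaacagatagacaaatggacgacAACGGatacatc

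D-type cyclins, which start the cycle in response to sugar and hormones, were present in 8 of 9 cases. The most abundant per length was CYCD3;2 at 73.9 ± 2.42 TPM, followed by CYCD2;1 at 63.4 ± 9.40 TPM (SD, n = 3). CYCD7;1, a gene of guard cell formation, had no count, which allows up to 0.147 to 0.190 CPM. Inhibitors that lead cells out of division were present too: the SIAMESE-type genes SIM and SMR1 were at 27.8, 36.3 and 45.6 CPM and 34.8, 40.1 and 47.3 CPM, both highest in replicate 3 and lowest in replicate 1.

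Ground tissue regulators had a median of 21.2 TPM. SCR and SHR, which specify endodermis and drive the division that separates it from cortex, were at 65.1, 68.2 and 69.3 CPM and 46.8, 57.4 and 44.5 CPM. Their zinc finger partners JKD and MGP were at 44.6, 40.5 and 42.1 CPM and 27.7, 24.5 and 26.1 CPM. CYCD6;1, the cyclin of that single division, was at 1.76, 1.65 and 0.750 CPM. Both genes of the cortex list were above these regulators' median: CORTEX (AT1G09750), an aspartyl protease family gene, was at 52.7, 39.5 and 77.7 CPM and CO2 (AT1G62500), a lipid transfer family gene, at 38.4, 19.9 and 33.9 CPM, with mean levels of 55.998 TPM and 30.3 TPM. Replicate 2 was the low library in both.

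In the endodermis list the median was 2.13 TPM. At 1 CPM or more in every library were 5 of 10 genes, below the 59.2% over all protein-coding genes. MYB36, the factor that switches on the Casparian strip, was at 6.01, 4.94 and 7.94 CPM, and the strip scaffold gene CASP1 at 3.57, 1.08 and 4.19 CPM. CYP86A1, which serves suberin synthesis in older endodermis, had at most 0.147 CPM. The dirigent-domain gene ESB1 was the highest member per length, at 10.06 TPM.

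In the epidermis, 9 of 10 patterning genes were at 1 CPM or more, with a median of 14.6 TPM. WER, the MYB factor of non-hair cells, was at 47.9, 44.8 and 53.02 CPM, GL2, which it activates, at 39.2, 29.9 and 41.01 CPM and CPC, the mobile repressor, at 11.7, 11.5 and 15.8 CPM. Root hair genes had a median of 3.30 TPM. RHD6, the factor that starts the hair programme, was at 24.2, 26.8 and 27.4 CPM with little spread. RBOHC, the NADPH oxidase gene of hair tip growth, was at 20.13, 37.4 and 45.9 CPM. The other 9 members had means of at most 5.44 CPM, among them RSL4 at 1.22, 1.96 and 6.06 CPM, EXPA7 at 0.440, 0.633 and 6.002 CPM and COBL9 at 1.66, 4.24 and 8.003 CPM. Replicate 3 was the high library in RBOHC and in each of these 3.

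Among xylem genes, LHW, a partner in the complex that starts vascular divisions, was at 86.3, 109 and 89.5 CPM and its partners TMO5 and T5L1 at 14.998, 15.8 and 13.3 CPM and 13.9, 15.1 and 16.3 CPM. VND7 and VND6, switches of vessel formation, were at 0.537, 0.760 and 0.5002 CPM and 0, 0.0633 and 0.0625 CPM. The secondary wall cellulose synthases CESA4, CESA7 and CESA8 were at 0.621 TPM, 2.57 TPM and 0.197 TPM. Of 17 phloem genes 13 were at 1 CPM or more, and the highest level per length was the 7.61 TPM of the phloem identity gene APL, below the median over all expressed genes. SUC2, the sucrose carrier of mature companion cells, was at 1.47, 1.58 and 3.001 CPM.

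Auxin carriers included the gene with the highest level per length of all cell type lists in the plot of marker lists. PIN2 (AT5G57090), which carries auxin shootward through lateral cap and epidermis, was at 421, 460.3 and 406 CPM, or 226 ± 15.9 TPM (SD, n = 3). The influx carrier AUX1 was at 56.1 ± 8.60 TPM, LAX2 at 44.8 ± 4.66 TPM and LAX3 at 37.99 ± 7.92 TPM. PIN4, PIN3 and PIN7 had levels of 31.8 ± 0.751 TPM, 26.7 ± 2.498 TPM and 23.2 ± 4.73 TPM (SD, n = 3 each). PIN5 and PIN6 had no count in any library, and PIN8, a carrier of pollen, had at most 0.127 CPM.

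**Figure D3:**
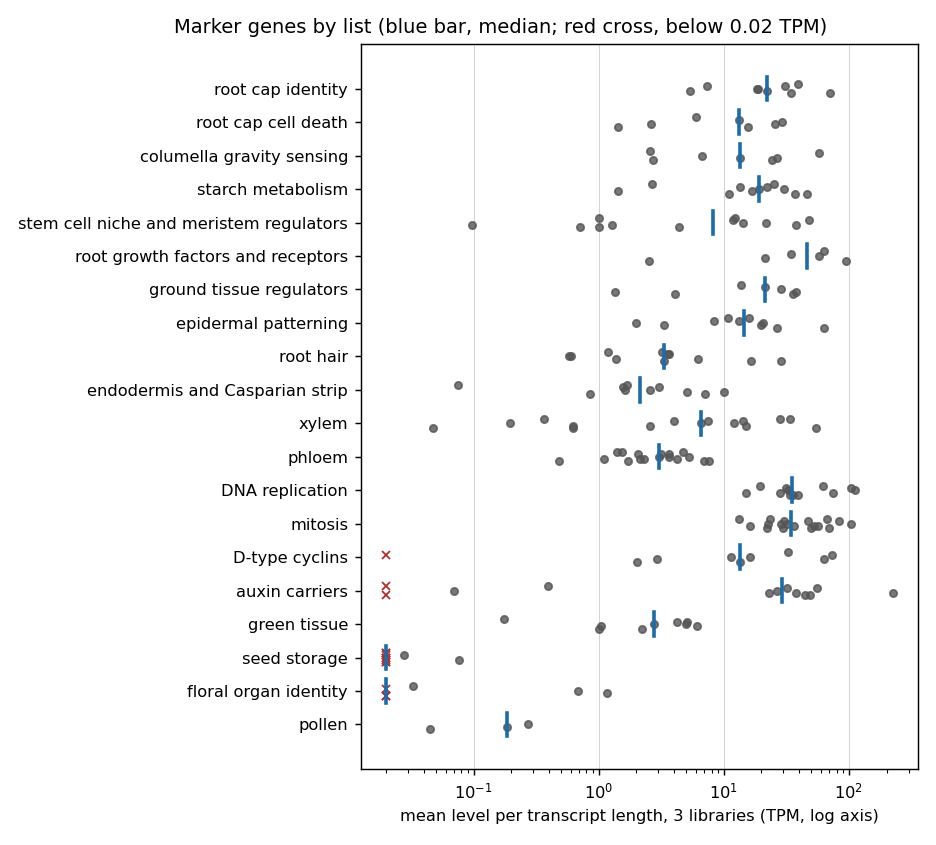
Mean level per transcript length in the 3 Col-0 libraries (TPM, log axis) of each gene in 20 marker lists, with 1 point per gene, a blue bar at the list median and a red cross for genes below the axis. Endodermis, root hair and phloem genes lie mostly below 10 TPM, replication and mitosis genes to the right of them, and seed storage genes at the left edge, with no floral organ or pollen gene above the 1.17 TPM of AP3.

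Genes of other organs measured what else the samples held. Of 10 seed storage genes 8 had no count, and the others, CRU2 and OLEO1, had at most 0.127 CPM. Of 6 floral organ identity genes AP1, AG and SEP3 had no count, and AP3 was at 0.782, 1.14 and 0.813 CPM. The 3 pollen genes had at most 0.253 CPM. Photosynthesis genes were detected at low levels. LHCB1.3, which encodes a light-harvesting protein, was at 3.22, 3.36 and 7.94 CPM and the Rubisco activase gene RCA at 4.69, 5.003 and 6.38 CPM, both highest in replicate 3, and the part of green tissue in the other differences of that library was not tested. The summed level of all 9 green tissue genes was 19.005, 20.3 and 34.9 CPM.

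The kinase mutated in the other group was itself a weak transcript. In Col-0 tips HSL2 reached only 6.94, 8.87 and 7.44 CPM. Its relatives HAE and HSL1 were at 1.86, 1.77 and 1.31 CPM and 12.8, 24.4 and 16.9 CPM. IDA, the abscission peptide that HAE and HSL2 perceive in flowers, had no count. The peptide gene IDL1, the remaining member of this list of 5, was detected, with a mean below 1 CPM.

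The 3 libraries resembled each other closely. Over the 17259 genes Pearson's r of log2(CPM + 0.5) was 0.987 between replicates 1 and 2, 0.985 between 1 and 3 and 0.975 between 2 and 3. These are correlations across genes, which are not independent replicates. Their counts differed by more than sampling noise, with a chi-square per degree of freedom of 17.1, 23.3 and 29.8, so none was a copy of another. The median coefficient of variation was 10.6% for genes of 10 to 100 CPM and 8.72% above 1000 CPM, where counting error alone gives 4.48% and 0.662%.

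Few genes at a mean of 10 CPM or more varied widely. A gene was called variable when its highest library was above 2-fold its lowest at a mean of at least 10 CPM, which is a rule of size and not a test. This held for 250 of 12053 genes, or 2.07%. Among the 5206 genes of 1 to 10 CPM, which the rule leaves out, 838 or 16.1% were above 2-fold. Their median coefficient of variation was 18.6%, where counting error alone gives 11.7%. Of the 250 genes called, the highest library was replicate 3 in 155, replicate 2 in 87 and replicate 1 in 8. Replicate 3 high with replicate 2 low was the commonest pattern with 108 genes, and the reverse followed with 67. In these 175 genes replicates 2 and 3 lay at opposite ends with replicate 1 between them. Between the remaining pair of libraries the count was 70 without replicate 3, 79 without replicate 2 and 194 without replicate 1, each at a mean of 10 CPM or more.

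Some of the variable genes fell in lists of related function, which were put together after these values had been seen. Each is summarised by the mean log2(CPM + 0.5) of its members in a library minus their mean over the 3 libraries. Over all 17259 genes with a mean of 1 CPM or more, the highest library was replicate 1 in 3574, replicate 2 in 6945 and replicate 3 in 6740. The lowest library was replicate 1 in 6080, replicate 2 in 5141 and replicate 3 in 6038. Heat shock genes had deviations of -0.36, 0.96 and -0.59 in replicates 1, 2 and 3. HSP70 (AT3G12580), a heat-induced cytosolic chaperone, was at 16.9, 130.3 and 4.25 CPM, a 30.7-fold span. HSP90.1 was at 19.8, 70.2 and 12.8 CPM, the co-chaperone ROF2 at 14.3, 91.2 and 15.1 CPM and the mitochondrial HSP23.5 at 5.81, 43.2 and 8.94 CPM. Replicate 2 was high in 9 of the 11 members with a mean of 1 CPM or more, while DREB2A and MBF1C, transcription regulators of heat and drought, were highest in replicate 3.

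Flavonoid genes were high in the same library, with deviations of -0.56, 0.91 and -0.35. The entry enzyme of the wider pathway PAL1 was at 22.6, 83.9 and 34.01 CPM, chalcone synthase CHS at 282, 616 and 243 CPM, chalcone isomerase TT5 at 7.38, 38.6 and 7.50 CPM and flavonol synthase FLS1 at 32.9, 121 and 40.9 CPM. Replicate 2 was highest in 10 of 11 members at 1 CPM or more, and the exception was MYB12, their activator, at 10.06, 16.7 and 28.3 CPM. DFR and LDOX, of the branch that leads to anthocyanin, had no count in any library. Of the 9 flavonoid genes with a mean of at least 10 CPM, 6 were above 2-fold, where the share over all genes was 2.07%. The list was put together after these values had been seen, so no excess can be read from this count.

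Replicate 3 was high in endoplasmic reticulum stress genes, with deviations of -0.14, -0.46 and 0.60 and the highest value in 14 of 14 members. BIP3 (AT1G09080), a luminal HSP70 that appears under folding stress, was at 2.88, 0.507 and 27.7 CPM. TIN1, induced by the glycosylation inhibitor tunicamycin, was at 7.57, 2.79 and 27.8 CPM and ERDJ3A, a DnaJ partner of BIP, at 35.6, 12.9 and 81.7 CPM. The abundant chaperones of the same compartment moved little: BIP1 was at 1099, 1080.2 and 1299 CPM and CNX1, calnexin, at 1039.8, 1050.5 and 1311 CPM.

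Genes known from darkness and sugar starvation showed deviations of 0.06, -0.78 and 0.72, with replicate 3 highest in 12 of 13 members and replicate 2 lowest in 12. ASN1, the asparagine synthase that stores nitrogen when carbon is short, was at 5.47, 1.01 and 26.9 CPM. DRM2 (AT2G33830), a dormancy-associated gene, was at 12.8, 2.47 and 49.02 CPM and BMY3, a beta-amylase family gene, at 64.05, 21.4 and 95.97 CPM. DIN9 was the exception, at 4.49, 4.05 and 1.81 CPM. Of the 12 members with a mean of at least 10 CPM, 7 were above 2-fold, where the share over all genes was 2.07%. As with the flavonoid list, the late choice of members means that no excess can be read from this count.

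Clock genes, in a list also put together after the values had been seen, differed in part. Of the 11 members with a mean of at least 10 CPM, 2 were above 2-fold, where the share over all genes was 2.07%. Among all 15 members the highest library was replicate 1 in 2, replicate 2 in 8 and replicate 3 in 5. The lowest was replicate 1 in 1, replicate 2 in 5 and replicate 3 in 9. The morning genes CCA1, LHY and RVE8 were at 0.635, 2.34 and 0.125 CPM, 0.831, 2.53 and 0.313 CPM and 0.684, 3.48 and 0.625 CPM, and their coactivator genes LNK1 and LNK2 at 18.7, 35.02 and 13.005 CPM and 12.8, 32.4 and 7.94 CPM. All 5 were highest in replicate 2 and lowest in replicate 3. CCA1, LHY and RVE8 were below 10 CPM throughout, and CCA1 in replicate 3 lay below the floor of 3 counts. The evening genes TOC1 and ELF4, at 88.4, 72.5 and 89.8 CPM and 32.6, 23.62 and 46.3 CPM, and GRP7 were lowest in replicate 2. Other members of the list, not named here, also had their highest or lowest value in replicate 2. The hour of harvest of each library is not given in the sources used here, and its part in these values was not tested.

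Among cell type lists with at least 5 members at a mean of 1 CPM or more, the widest deviations were in root hair genes, at -0.56, -0.28 and 0.85, root cap identity, at 0.05, 0.36 and -0.41, and endodermis, at -0.01, -0.36 and 0.37. The cortex list, with 2 genes, had 0.16, -0.51 and 0.35. Root cap identity genes were highest in replicate 2 in 8 of 9 cases and lowest in replicate 3 in all 9. Of the 7 genes at 10 CPM or more 3 were above 2-fold, where the share over all genes was 2.07%. The members were chosen with earlier results of these data known, so no excess can be read from this count. Root hair genes were highest in replicate 3 in 8 of 9 cases, and 1 of the 2 genes at 10 CPM or more was above 2-fold. Endodermis genes were highest in replicate 3 in all 8 members with a mean of 1 CPM or more. Only 1 of these reached 10 CPM, and it was not above 2-fold. Over all 17259 genes replicate 3 was highest in 6740 and lowest in 6038, and replicate 2 highest in 6945. The summed level of the root hair list was 56.2, 80.2 and 113 CPM and that of the cap identity list 306, 382 and 223 CPM.

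Division genes had smaller but even shifts. Mitosis genes had deviations of 0.21, -0.04 and -0.16, highest in replicate 1 in 17 of 18, and replication genes 0.14, 0.08 and -0.22. Ribosome biogenesis genes, among them the nucleolar genes FIB1 and NUC-L1, had 0.21, 0.10 and -0.31. Columella gravity sensing genes were at 0.00, -0.01 and 0.01 and ground tissue regulators at 0.00, 0.05 and -0.05. Over all 17259 genes the deviations were -0.04, 0.02 and 0.01.

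**Figure D4:**
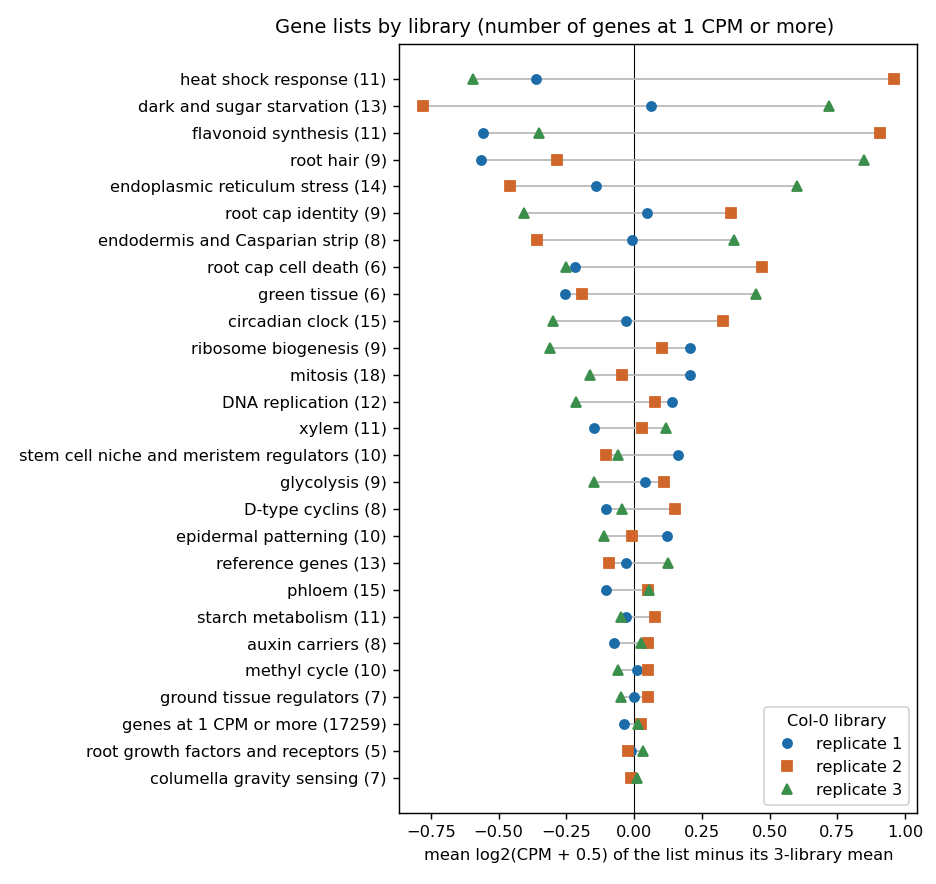
Mean log2(CPM + 0.5) of each gene list in each Col-0 library minus its mean over the 3 libraries (horizontal axis), ordered by width, with 1 symbol per library and the number of genes with a mean of at least 1 CPM in brackets. Heat shock and flavonoid genes stand high in replicate 2, starvation, endoplasmic reticulum stress and root hair genes high in replicate 3, and columella and ground tissue genes lie near 0.

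A handful of genes were nearly absent from at least 1 library and well expressed in another. MRD1 (AT1G53480), described as mto 1 responding down 1, had 3, 1219 and 2 counts in replicates 1, 2 and 3, or 0.147, 77.2 and 0.125 CPM. AT3G24542, annotated as related to beta-galactosidase, had 0, 170 and 0 counts. In the other direction AT1G64795 had 423, 0 and 529 counts, AT1G75945 had 338, 0 and 274, and the pseudogene AT5G44925 had 569, 3 and 311. These 5 genes, found by a rule of at most 3 counts in 1 library and at least 100 in another that was added after the values were seen, set replicate 2 apart in every case. Against the floor of 3 counts in a single library, AT1G64795 was at least 174-fold and AT1G75945 at least 90.2-fold higher in replicate 3 than in replicate 2.

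**Figure D5:**
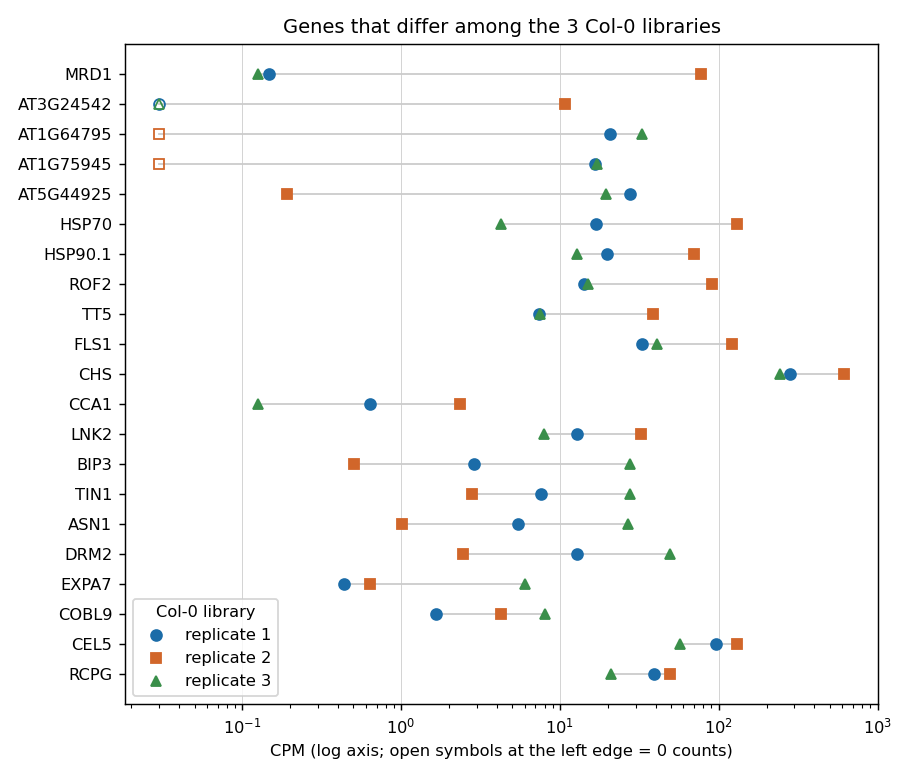
CPM (log axis) of 21 genes named in the text as differing among the Col-0 libraries, with 1 symbol per library and open symbols at the left edge for 0 counts. Replicate 2 lies at one end for the first 5 genes, at the high end for heat shock, flavonoid and clock genes and at the low end for BIP3, TIN1, ASN1 and DRM2.

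At the other end, some genes were level among the libraries. The steadiest genes at a mean of 100 CPM or more were AT1G64650, a transporter of the major facilitator superfamily, at 193, 192 and 193 CPM, the plastid acetyl-CoA carboxylase subunit CAC3 at 338, 340.2 and 338 CPM and the membrane-shaping reticulon RTNLB3 at 208, 206 and 206 CPM. Their coefficients of variation were 0.213%, 0.350% and 0.592%, within counting error. Of 13 genes in common use as references none was above 2-fold, a count near what the 2.07% of all genes gives for any 13. GAPC2 was at 1224, 1166 and 1219 CPM and PP2AA3, a phosphatase subunit, at 102, 99.3 and 110.2 CPM. UBQ10 was less steady at 595, 475 and 687 CPM, and EF1A-A4 stood at 5767, 4836 and 4154 CPM.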

How the data were processed

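Total RNA was extracted with TRIzol, cleaned on RNeasy columns and made into stranded TruSeq libraries, per the labels' protocols. Reads had been trimmed with Trimmomatic 0.33, and STAR 2.5.1b and featureCounts are the other tools listed, per the submitters' processing notes. The authors deposited unnormalized read counts by gene, 1 file per library, with no pooling. The genome build, gene models and strandedness of counting are not stated, so reads of overlapping or antisense genes and of near-identical copies may be divided in unknown ways.

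From these counts, CPM was computed with the total of each library and TPM (summing to a constant per library) with the longest RefSeq TAIR10.1 transcript (37051 of 37336 identifiers matched). Deviations used log2(CPM + 0.5). Genes at a mean of 10 CPM or more with a highest library above 2-fold the lowest were called variable. This rule was tested on simulated data. Python 3.11.15, pandas 2.3.3, R 4.3.3, edgeR 4.0.16 (TMM sizes) and DESeq2 1.42.0 (size factors) were used, the last 2 for alternatives only. Depth was 15791819 to 20468890 counts.

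Genes named were the 20 highest per length and by CPM, the 3 highest of each of 17 classes, up to 5 members of each list, the 20 highest transcription factors, the 10 widest in each direction per library and the 10 steadiest; further list members were named after their values were seen. Classes and transcription factor families came from words in the gene description. Of 33 lists, 9 were added after the values were seen, and all members and lists were chosen with earlier results of these data known. The hsl2 libraries were used for counts of 5 genes only.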

Additional observations from a re-analysis of the deposited data

How the results depend on the processing

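No paired analysis was possible because a single genotype was described and no test was made. The count of 250 variable genes depended on its rule. It was 390 at a minimum mean of 5 CPM, 153 at 20 CPM and 4890 with no minimum and 1 count added, and 1385 at a fold of 1.5 and 69 at a fold of 3. Leaving out a library gave 70 to 194, with 70 without replicate 3, 79 without replicate 2 and 194 without replicate 1. Fewer libraries give fewer extremes by construction. The ribosomal share of 12.9% was 20.3% per length. Of the 20 highest genes per length, 13 stayed among the 20 highest with coding length and 12 with CPM. TMM and DESeq2 sizes moved the median gene by at most 0.04 on the log2 scale in size. Of 312 recomputed deviations of lists, from new sizes or from leaving out a library, 304 stayed within 1 SD. All 8 that moved came from new sizes: 5 moved and 73 stayed with TMM, and 3 moved and 75 stayed with DESeq2. The mean numbers of expressed genes and the concentration of counts stayed near their values. Of 312 recomputed mean CPM values of named genes, 25 moved by over 1.5 times, all on leaving out a library: without replicate 2, MRD1 averaged 0.136 against 25.8 CPM and HSP70 10.6 against 50.5 CPM, and without replicate 3, BIP3 averaged 1.69 against 10.4 CPM and DRM2 7.61 against 21.4 CPM. Low genes such as WOX5 rest on few counts, and depth limits what can be said below the floor of 0.147 to 0.190 CPM.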

Other observations

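Of the 5 genes that were nearly absent from at least 1 Col-0 library, 3 also differed in this way among the hsl2 libraries. MRD1 had 1077, 0 and 3 counts in hsl2 replicates 1, 2 and 3, against 3, 1219 and 2 in Col-0 replicates 1, 2 and 3. AT1G64795 had 0, 551 and 335 counts in hsl2 and 423, 0 and 529 in Col-0, and AT5G44925 had 2, 313 and 302 in hsl2 and 569, 3 and 311 in Col-0. In these 3 genes the library that stood apart was hsl2 replicate 1 in the mutant and Col-0 replicate 2 in the wild type. AT1G75945 had 126, 395 and 256 counts in hsl2 and 338, 0 and 274 in Col-0, so of these 6 libraries only Col-0 replicate 2 was at 0. AT3G24542 had 1, 0 and 0 counts in hsl2 and 0, 170 and 0 in Col-0.

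Long transcripts were slightly higher in Col-0 replicate 2. Over genes at a mean of 10 CPM or more, the median deviation of that library on the log2 scale was -0.03 in the quartile of shortest transcripts and 0.08 in the quartile of longest. In replicate 1 the same quartiles had 0.00 and -0.05. Over quartiles of GC content the medians of replicate 2 lay between -0.01 and 0.03.

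Among genes that are not protein-coding, the 18S ribosomal RNA gene AT3G41768 was at 257, 285 and 299 CPM, the non-coding RNA gene GUT15 at 99.6, 104 and 117 CPM and the retroelement-like pseudogene SADHU1-1 at 105, 86.8 and 137 CPM.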
